A study of Mus musculus with 18 samples.

Results

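In all, 9 genes for transcription factors that set and keep the identity of hepatocytes were followed: Hnf4a, Foxa1, Foxa2, Foxa3, Cebpa, Onecut1, Nr1i2, Nr1i3 and Prox1. They were chosen by name, with earlier results of these data known, and all 9 were among the 24062 gene symbols of the count table. RNA-seq counts came from whole liver, kidney and lung of C57BL/6 mice, with 3 libraries for each tissue and genotype, 6 groups in all. CCNE-TA mice carried a Ccne1 transgene under tetracycline control along with rtTA, the activator it needs, and TA control mice carried rtTA alone. Both genotypes had doxycycline, the drug that switches rtTA on, from weaning at 3 weeks until they were killed at 4 months, so exposure to rtTA and to the drug was common to all groups. The promoter that drives rtTA is not given in the sources used here. The labels do not say whether each library of a group came from a mouse of its own, so p-values measure the spread between these samples.

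These factors form a network in which the members bind their own and each other's regulatory regions. FOXA1, FOXA2 and FOXA3 are forkhead factors that open closed chromatin, HNF4A is a nuclear receptor that activates genes for lipoproteins, clotting factors and bile acid handling, and CEBPA is a leucine zipper factor of the mature, non-dividing hepatocyte. ONECUT1 (HNF6) and PROX1 are homeodomain factors of liver development that stay on in the adult organ. NR1I2 (the pregnane X receptor, PXR) and NR1I3 (the constitutive androstane receptor, CAR) sense drugs and steroids and pair with RXRA to induce detoxifying enzymes. Several also work in other cells: HNF4A also acts in the proximal tubule of the kidney, FOXA1, FOXA2 and CEBPA act in lung epithelium, PROX1 marks lymphatic endothelium, and ONECUT1 is also made by bile duct and pancreas cells.

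In liver, 3 of the 9 genes were lower in CCNE-TA than in TA, Onecut1 by 8.86-fold, Prox1 by 4.17-fold and Hnf4a by 1.82-fold, and 0 were higher (edgeR adjusted p under 0.05). Lowered genes made up 14.8% and raised genes 13.7% of all 13811 genes tested in liver, 28.5% together. Foxa1, Foxa2, Foxa3, Cebpa, Nr1i2 and Nr1i3 did not pass the test. In kidney and lung 0 members passed. Prox1 kept its call in liver under all 15 alternatives that were run, Onecut1 under 10 and Hnf4a under 5.

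Of the windows before the RefSeq start sites of the 3 lowered genes, 4 are shown so that the sequences can be read beside the counts, and an inner Prox1 window, which held no match, is left out. Each is 250 bases, 5′ to 3′ on the strand of the gene, from RefSeq on build GRCm38.p6, and capitals mark a match to one of the searched motifs. Hnf4a has an upstream and a downstream start, at chr2:163506607-163506856 and chr2:163546905-163547154 on the plus strand, and counts per gene do not tell them apart. The Onecut1 window is chr9:74861671-74861920 on the plus strand, and the outer Prox1 window is chr1:190170828-190171077 on the minus strand.
Hnf4a upstream start: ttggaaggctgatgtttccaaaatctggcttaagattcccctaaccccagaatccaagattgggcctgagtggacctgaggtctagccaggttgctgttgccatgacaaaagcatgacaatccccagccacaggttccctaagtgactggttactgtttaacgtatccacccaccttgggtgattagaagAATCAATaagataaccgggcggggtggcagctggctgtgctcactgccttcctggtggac
Hnf4a downstream start: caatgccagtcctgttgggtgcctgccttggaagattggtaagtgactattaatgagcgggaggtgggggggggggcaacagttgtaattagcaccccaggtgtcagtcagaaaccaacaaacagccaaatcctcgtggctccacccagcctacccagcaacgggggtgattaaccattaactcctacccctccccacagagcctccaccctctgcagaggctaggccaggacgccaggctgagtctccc
Onecut1: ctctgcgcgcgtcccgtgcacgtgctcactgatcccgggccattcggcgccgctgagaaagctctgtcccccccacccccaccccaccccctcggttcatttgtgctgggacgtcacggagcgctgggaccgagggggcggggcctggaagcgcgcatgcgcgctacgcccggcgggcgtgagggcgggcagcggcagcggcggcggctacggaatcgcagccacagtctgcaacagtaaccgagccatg
Prox1 outer start: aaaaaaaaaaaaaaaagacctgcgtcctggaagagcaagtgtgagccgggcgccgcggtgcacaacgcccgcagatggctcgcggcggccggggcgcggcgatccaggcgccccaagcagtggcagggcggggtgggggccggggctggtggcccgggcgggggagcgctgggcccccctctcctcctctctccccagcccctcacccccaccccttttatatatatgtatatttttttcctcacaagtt

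Motifs of the HNF4, FOXA, ONECUT and CEBP factors and of E2F, the factors released at entry into S phase, were searched on both strands. No motif was searched for PROX1, NR1I2 or NR1I3. In the upstream Hnf4a window an ONECUT match, AATCAAT, began 60 bases before the start (position -60). The other 3 windows held none of the letters searched. Over all 13 windows of the 9 genes, 5 held a match: FOXA matches stood before Foxa1 and Nr1i2, ONECUT matches before Hnf4a and Foxa2, and 2 E2F matches before a second Foxa2 start. Of 32851 RefSeq windows of this length, 2.99% held the ONECUT letters ATTGATT or ATCGATT, 5.76% the FOXA letters TGTTTAC or TATTTAC, and 2.48% the E2F letters TTTCGCGC, TTTGGCGC or TTCCCGCC. The HNF4 letters CAAAGTCCA stood in 0.384% and the CEBP letters TTGCNNAA in 9.56%. A match is a description of the letters only.

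Liver libraries held 26214869 to 61954486 counts, kidney libraries 20352770 to 43202066 and lung libraries 41597623 to 155323865. Levels are given as CPM, counts scaled to library size within each tissue, unless another scale is named. A count of 3, used as the floor of detection, equals 0.048 to 0.092 CPM for liver libraries, 0.072 to 0.137 for kidney and 0.019 to 0.074 for lung, for counting error only. Ccne1 itself did not overlap between genotypes in any tissue, with the CCNE-TA libraries on top: in liver at 287 ± 71.9 against 2.47 ± 0.386 CPM, in kidney at 718 ± 211 against 2.06 ± 0.505 and in lung at 88.8 ± 32.1 against 3.59 ± 2.49 (SD, n = 3 per group). Xist, the RNA of the inactive X chromosome, split the livers across genotypes. It stood at 780.9 and 660.3 CPM in CCNE-TA 1 and 2 and at 401.9 CPM in TA 1, and at 3.098, 0.27 and 0.23 CPM in CCNE-TA 3, TA 2 and TA 3. The labels give no sex.

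The first comparison places the 9 genes in the 3 organs of control mice, on 1 scale over all 18 libraries. All 9 were higher in control liver than in control kidney, where 28.6% of 17155 genes tested were higher in liver. Against control lung 7 of the 9 were higher in liver, beside 32.6% of all genes. The 2 that did not pass against lung were Foxa1 and Foxa2.

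**Figure D1:**
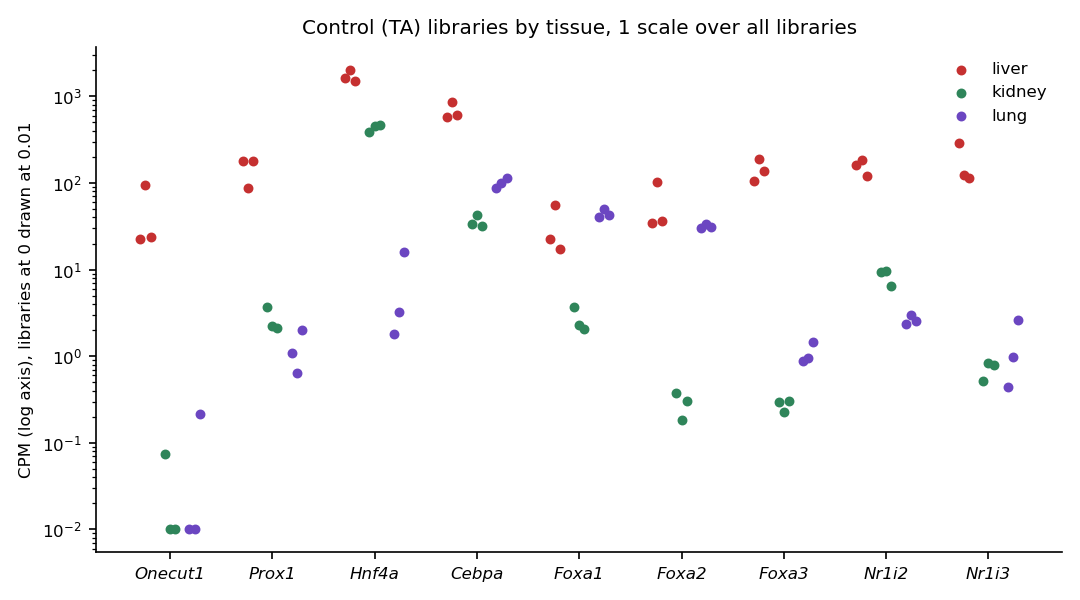
Each point is 1 TA library (3 per tissue), in CPM on 1 scale over all 18 libraries and a log axis, with libraries at 0 drawn at 0.01. Hnf4a in kidney sits at 392 to 471 CPM, while Foxa1 in lung (40.9 to 50.2 CPM) lies within the range of liver (17.3 to 56.1 CPM).

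Hnf4a (chr2:163506808-163572910, plus strand, mm10 with GENCODE M21, as for all genes below) was high in both liver and kidney. It averaged 1710 ± 272 CPM in control liver, 439 ± 41.5 in control kidney and 6.97 ± 7.74 in control lung (SD, n = 3, scale over 18 libraries). The ranges of the 3 tissues did not overlap, and the liver level exceeded the kidney level by 1.96 ± 0.65 on the log2 scale (SE, edgeR adjusted p = 0.0145). That call was lost without kidney TA 1, at an adjusted p of 0.0509. Its SE comes from 1 spread over all 18 libraries, lung among them.

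Foxa1 (chr12:57540628-57546916, minus strand) had its highest mean in lung, at 44.7 ± 4.9 CPM, against 31.9 ± 21.1 in liver and 2.69 ± 0.905 in kidney. Liver and lung overlapped, with a log2 difference of -0.49 ± 0.37 (SE, edgeR adjusted p = 0.256). Without liver TA 2 the difference was -1.17 with an edgeR adjusted p of 0.00511. Foxa2 (chr2:148042877-148046969, minus strand) stood at 58 ± 38.8 CPM in liver, 31.7 ± 1.96 in lung and 0.286 ± 0.0953 in kidney. Its liver libraries lay above its lung libraries, with a log2 difference of 0.87 ± 0.39 (SE, edgeR adjusted p = 0.057). Foxa3 (chr7:19013284-19023538, minus strand) showed the widest gap of the forkhead members between liver and the other organs, from 143 ± 40.7 CPM to 1.11 ± 0.316 in lung and 0.275 ± 0.0432 in kidney.

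Cebpa (chr7:35119293-35121928, plus strand, a gene of 1 exon) stood at 685 ± 151 CPM in liver, 101 ± 13.6 in lung and 36 ± 5.63 in kidney, with no overlap. Onecut1 (chr9:74861921-74891781, plus strand) averaged 47.4 ± 41.9 CPM in control liver, with a lowest library at 22.5 and a highest at 95.8. Kidney held 2, 0 and 0 Onecut1 counts in TA 1, 2 and 3, all below the floor, and lung held 1, 0 and 13, so no fold is given for it. Prox1 (chr1:190118035-190170714, minus strand) stood at 149 ± 52.4 CPM in liver, 2.66 ± 0.865 in kidney and 1.25 ± 0.699 in lung.

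Of the xenobiotic receptors, Nr1i2 (chr16:38248323-38294824, minus strand) had 155 ± 33.5 CPM in liver, 8.51 ± 1.79 in kidney and 2.64 ± 0.347 in lung. Nr1i3 (chr1:171213970-171220701, plus strand) had 176 ± 99.6 CPM in liver, 1.34 ± 1.14 in lung and 0.717 ± 0.171 in kidney, and lung and kidney overlapped. Nr1i3 shares 3304 exon bases, 74.9% of its own, with Tomm40l on the opposite strand. The library kit does not mark the strand, so reads in the shared part cannot be assigned to either gene. Tomm40l, a mitochondrial import subunit, stood at 59 ± 10.3 CPM in control kidney and 38.9 ± 0.295 in control lung on the scales within these tissues, where Nr1i3 was at 0.85 ± 0.199 and 1.98 ± 1.69 CPM. Onecut1 shares 52.8% of its exon bases with a noncoding gene on the same strand, Gm20649, which is not in the table used here.

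Per length of the longest transcript, Hnf4a was the most abundant of the 9 in control liver, at 392 ± 62.6 RPKM (SD, n = 3). It was followed by Cebpa at 261 ± 57.6 RPKM, Foxa3 at 70.4 ± 20, Nr1i2 at 60.8 ± 13.1 and Nr1i3 at 59 ± 33.5. Foxa2 at 27.3 ± 18.2, Prox1 at 18.8 ± 6.62, Onecut1 at 12 ± 10.6 and Foxa1 at 10 ± 6.62 RPKM closed the order. Foxa3, Nr1i2 and Nr1i3 differed from each other by less than their SD, as did Onecut1 and Foxa1. In CCNE-TA liver Hnf4a (214 ± 29.4 RPKM) and Cebpa (153 ± 41.7) again led, and Prox1 (4.47 ± 0.935) and Onecut1 (1.33 ± 0.667) came last, below Foxa1 at 9.72 ± 1.78 RPKM.

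The second comparison asks how these genes stood in liver after long-term Ccne1 expression. The CCNE-TA libraries lay below all TA libraries for Onecut1, Prox1, Hnf4a and Cebpa, and above all of them for Nr1i2. Over all tested genes 24.7% lay below without overlap and 23.2% above. The median log2 fold change of the 9 genes was -0.43, and that of all genes was 0.02. In whole tissue, fewer cells of a type and less RNA per cell cannot be told apart.

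**Figure D2:**
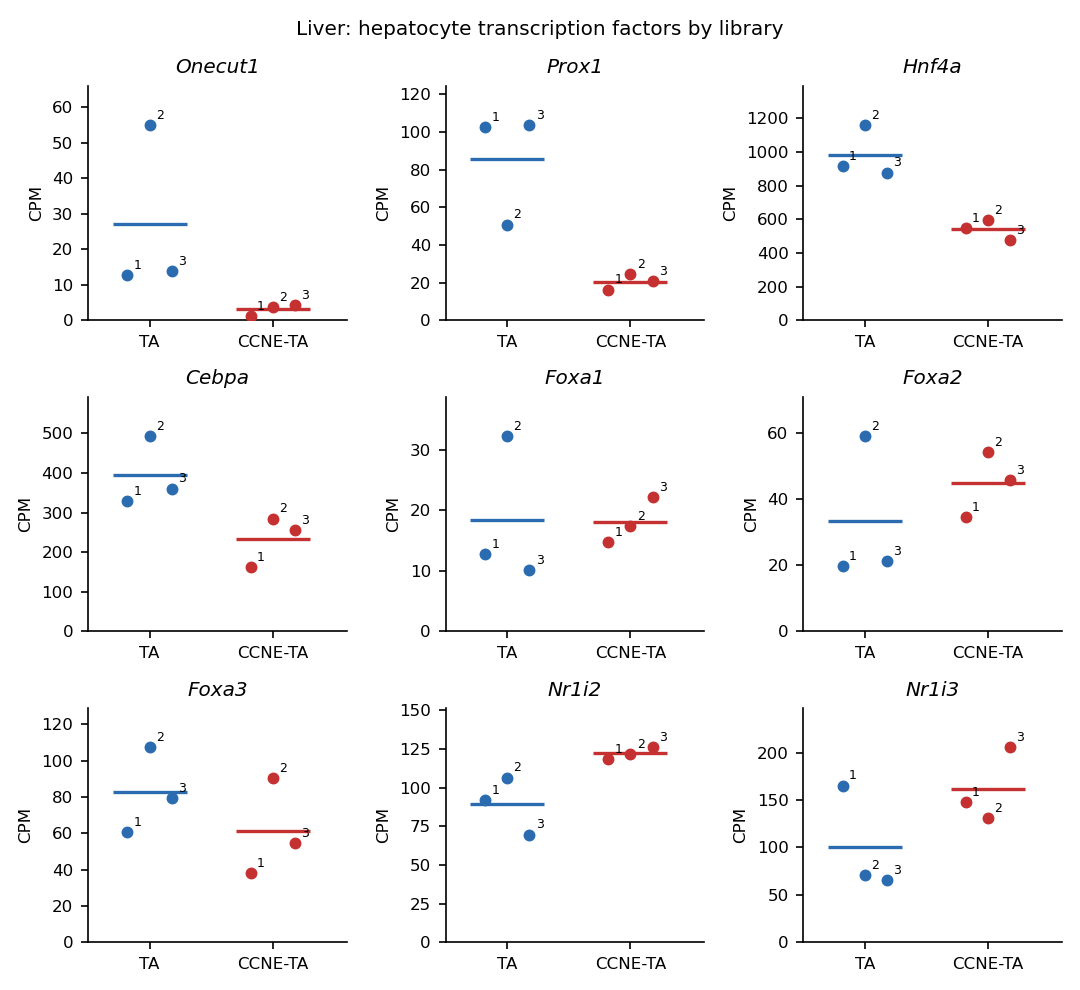
CPM of each gene in the 6 liver libraries, TA in blue and CCNE-TA in red, numbered by replicate, with the group mean as a bar. Onecut1, Prox1, Hnf4a and Cebpa show separate groups with TA on top, while TA 2 stands above the other TA libraries for Onecut1, Foxa1 and Foxa2 and below them for Prox1.

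Onecut1 stood at 12.78, 55.03 and 13.99 CPM in TA 1, 2 and 3 and at 1.29, 3.68 and 4.26 CPM in CCNE-TA 1, 2 and 3. The groups did not overlap, and TA 2 lay far above the other controls. CCNE-TA minus TA, the log2 fold change (here also log2 change) came to -3.15 ± 0.76 (SE, edgeR adjusted p = 0.0274), and 0.384% of the tested genes had a lower value. Without TA 2 the value was -2.14 with an edgeR adjusted p of 0.0319. The call was lost without CCNE-TA 1, 2 or 3 (edgeR adjusted p = 0.0718, 0.0786 and 0.091), without the filter on low counts (0.0585) and with TA 1 as the only control (-2.07, 0.169).

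The related factor Onecut2 stood at 86.8 ± 7.78 CPM in TA and 63 ± 6.74 in CCNE-TA, also without overlap, at a log2 change of -0.46 (edgeR adjusted p = 0.0787). Markers of the acinar cells of the pancreas, an organ where Onecut1 is also active, were uneven among the control livers, with Cela2a at 30.67, 10.51 and 0.88 CPM in TA 1, 2 and 3 and at 0.81 to 1.15 CPM in CCNE-TA. The summed level of the 10 acinar markers was 22.7 to 228 CPM in TA and 9.14 to 14.4 in CCNE-TA, with Amy2a5 at 0 throughout. Most of the lowest TA sum and of the CCNE-TA sums was Cela1, at 21.3 to 39.3 CPM in TA and 7.97 to 13.1 in CCNE-TA. It was the 1 of 3 tested that fell (-1.65, edgeR adjusted p = 0.00735). Cela2a in TA 3 was at the CCNE-TA level, so the sums do not show acinar transcripts in every control. The part of acinar transcripts in the Onecut1 result was not tested.

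Prox1 stood at 103, 50.87 and 104 CPM in TA 1, 2 and 3 and at 16.37, 24.67 and 20.67 CPM in CCNE-TA 1, 2 and 3. Every CCNE-TA library was below every TA library, and TA 2, the control with the most Onecut1, had the least Prox1. The log2 change was -2.06 ± 0.30 (SE, edgeR adjusted p = 0.00477), with 1.88% of genes lower. Values ran from -2.34 to -1.65 over the 15 alternatives, with TA 1 as the only control at -2.33 (edgeR adjusted p = 0.0337).

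Prox1 is also a marker of lymphatic endothelium, and endothelial genes moved with it. Lowered genes made up 14.8% of all genes tested in liver. Of 7 tested lymphatic markers other than Prox1, 1 fell, Lyve1 (-2.21, edgeR adjusted p = 0.036), and their summed level was 102 to 164 CPM in TA and 80.8 to 102 in CCNE-TA. Not all are particular to lymphatic vessels, as Reln was also on a list of stellate cell and fibroblast markers. Ccl21a was at 0 in liver, kidney and lung, so it says nothing here. Of 12 general endothelial markers 7 fell and 0 rose (4 fell with CCNE-TA 1, TA 2 or TA 3 left out alone), led by Kdr, the main receptor for VEGF (28 ± 7.71 to 5.56 ± 1.5 CPM, SD, n = 3), with a sum of 254 to 322 CPM in TA and 185 to 228 in CCNE-TA. Their part in the Prox1 result was not tested.

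Hnf4a stood at 916, 1160 and 878 CPM in TA 1, 2 and 3 and at 549, 597 and 475 CPM in CCNE-TA 1, 2 and 3. Every CCNE-TA library lay below every control. The log2 change was -0.87 ± 0.24 (SE, edgeR adjusted p = 0.0305), and 13.2% of tested genes had a lower value. The fold change stayed between -0.95 and -0.68 in 15 alternatives, of which 10 took the adjusted p past 0.05. These 10 included the fit of all 18 libraries (0.299), which takes its spread over lung and kidney too. Also among them were upper quartile scaling (-0.68, 0.0604), Xist as a covariate (0.0872) and leaving out CCNE-TA 1 (0.104), TA 1 (0.0637), TA 2 (0.113) or TA 3 (0.0701). The antisense transcript Hnf4aos, which shares 0 exon bases with Hnf4a, stood at 4.06 ± 0.614 CPM in TA and 3.17 ± 1.56 in CCNE-TA.

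Cebpa stood at 329, 493 and 360.5 CPM in TA 1, 2 and 3 and at 162, 285 and 255 CPM in CCNE-TA 1, 2 and 3. The groups did not overlap, yet the log2 fold change of -0.75 ± 0.28 (SE) missed the threshold (edgeR adjusted p = 0.0767). It passed with DESeq2 (adjusted p = 0.0311), in the edgeR fit of all 18 libraries (0.0181) and, at -1.16, with the correction for length and GC content (0.0297).

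The 3 forkhead genes overlapped between the genotypes. Foxa1 stood at 12.72, 32.26 and 10.09 CPM in TA 1, 2 and 3 and at 14.75, 17.33 and 22.15 CPM in CCNE-TA. The highest and the 2 lowest libraries were all controls, and the log2 change was -0.02 ± 0.42 (SE, edgeR adjusted p = 0.973). Foxa2 stood at 19.83, 59.09 and 21.24 CPM in TA and 34.65, 54.28 and 45.82 CPM in CCNE-TA, a log2 change of 0.43 ± 0.42 (SE, edgeR adjusted p = 0.47). As for Foxa1, TA 2 was the highest library and TA 1 and TA 3 the lowest. Without TA 2 the Foxa2 value was 1.11 and passed the test (edgeR adjusted p = 0.0338). Foxa3 stood at 60.68, 108 and 79.55 CPM in TA and 38.28, 90.58 and 54.50 CPM in CCNE-TA, a log2 change of -0.43 ± 0.34 (SE, edgeR adjusted p = 0.354).

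The 2 xenobiotic receptors had positive values. Nr1i2 stood at 91.92, 106 and 69.54 CPM in TA 1, 2 and 3 and at 118, 122 and 126 CPM in CCNE-TA. The groups did not overlap and the CCNE-TA libraries lay close together, with a log2 change of 0.45 ± 0.20 (SE, edgeR adjusted p = 0.128). Nr1i3 stood at 165, 71.27 and 65.93 CPM in TA and 148, 131 and 206 CPM in CCNE-TA, a log2 change of 0.68 ± 0.37 (SE, edgeR adjusted p = 0.196). TA 1, the control with high Xist, lay among the CCNE-TA libraries. Without TA 1 the Nr1i3 value was 1.22 (edgeR adjusted p = 0.0267), and with TA 1 as the only control it was -0.05 (0.955). Tomm40l moved with Nr1i3 over the livers, at 158.3, 56.82 and 64.85 CPM in TA and 169.6, 106.3 and 209.3 CPM in CCNE-TA.

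Beside 14.8% lowered and 13.7% raised over all liver genes, the wider set of liver transcription factors had 9 lowered and 2 raised. The set held 38 genes with no member among them, and its median log2 fold change was -0.18. With CCNE-TA 1, TA 2 or TA 3 left out alone, 0 were raised, and without TA 1 1 was. Rxra, the partner of both xenobiotic receptors, fell from 569 ± 16.2 to 224 ± 24.9 CPM (SD, n = 3), a log2 change of -1.35 (edgeR adjusted p = 0.00567). Nr5a2 (LRH-1), a receptor of bile acid synthesis, fell by 1.50 on the log2 scale, Ppara, the receptor that drives fatty acid oxidation, by 1.41, and Nr3c1, the glucocorticoid receptor, by 1.19. Zhx2, a repressor of fetal liver genes, fell by 1.67, the lipogenic factor Srebf1 by 1.46, the circadian repressor Bhlhe40 by 1.76 and the estrogen receptor Esr1 by 2.67. Zbtb20, a repressor of Afp, also fell. Mlxipl (ChREBP), the glucose-sensing factor, rose by 1.10 and Nr0b2 (SHP), a repressor of Nr5a2 and Hnf4a activity, by 1.13. Of 14 coregulators of nuclear receptors, Ncoa2 (-1.15), Crebbp (-0.94) and Ncor1 (-0.77) fell and Hdac3 (0.58) rose, with a median of -0.34.

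**Figure D3:**
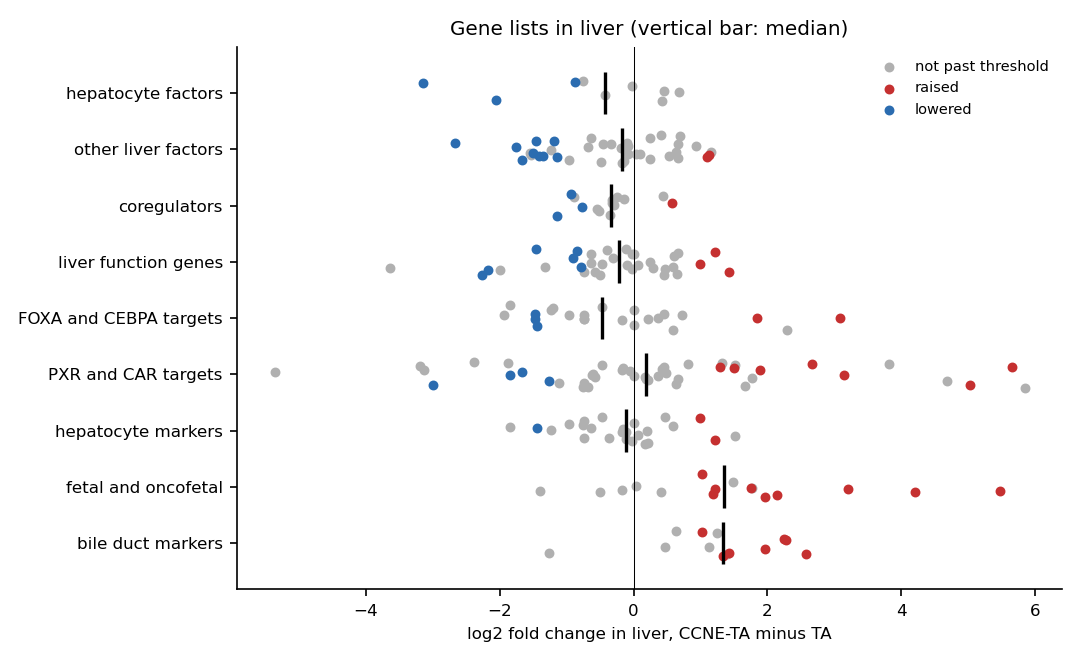
Each point is the log2 fold change of 1 tested gene in liver (CCNE-TA minus TA), by list, red where raised, blue where lowered and grey where the test was not passed, with the list median as a bar. The 9 factors and the 38 other liver factors have medians of -0.43 and -0.18, and the fetal and bile duct lists lie to the right; members of the 9 are left out of the other lists.

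Genes of liver function did not move in 1 direction. Over all genes tested in liver 14.8% fell and 13.7% rose, shares to set beside this list and the next. Of 34 liver function genes, known HNF4A targets among them, 6 fell and 3 rose, with a median of -0.22. With CCNE-TA 1, TA 2 or TA 3 left out alone, 2 fell, and without TA 2 or TA 3 1 rose. Apom, a lipoprotein component, fell from 285 ± 31.2 to 59.7 ± 13.5 CPM (log2 fold change -2.26, edgeR adjusted p = 0.00204). Slc10a1, the bile acid importer, changed by -1.46, Cyp8b1, which sets the kind of bile acid made, by -2.18, Mttp, which loads lipoproteins, by -0.84, and clotting factor F7 by -0.91. Apoc2 (1.43) and Apoc3 (1.22), apolipoproteins that act on lipoprotein lipase, rose. Of 23 genes regulated by FOXA or CEBPA factors, 3 fell and 2 rose, with a median of -0.47, and 0 did either without CCNE-TA 1, and 1 fell and 0 rose without TA 2. Those that fell were Ces1d (-1.47), Serpina3k (-1.47) and the urea cycle enzyme Cps1 (-1.45). Cdkn1a, the cell cycle inhibitor p21, rose by 3.09. Ass1 rose by 1.84 at very low levels, as counted, of 0.195 CPM in TA and 0.693 in CCNE-TA. These are close to the liver floor of 0.048 to 0.092 CPM, so both its level and its rise are uncertain.

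Of 45 tested genes regulated by PXR or CAR, 7 rose and 4 fell, with a median of 0.19, beside 13.7% raised and 14.8% lowered over all genes. With Xist as a covariate the counts were 6 and 6 and the median was -0.02, and by DESeq2 they were 10 and 9. Several glutathione transferases rose, with Gstm1 going from 1230 ± 234 to 4580 ± 671 CPM (log2 fold change 1.89, edgeR adjusted p = 0.00502), Gstm3 changing by 3.14, Gsta2 by 2.67 and Gsta1 by 5.65. These are members of families with near-identical copies, whose reads the counting could have split, so single values are uncertain. Sult1e1, the estrogen sulfotransferase, rose by 5.03. The transporters Slco1b2 (-1.67) and Abcc2 (-1.26) fell. The CAR target Cyp2b10 (21.2 ± 20.8 and 28.4 ± 34.4 CPM in TA and CCNE-TA) and the PXR target Cyp3a11 (1060 ± 426 and 3030 ± 2120 CPM) did not pass the test (edgeR adjusted p = 0.864 and 0.0942), and were named after their values were seen.

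Markers of cell types moved in part with these changes. Their counts stand beside 13.7% raised and 14.8% lowered over all genes tested in liver. Of 25 hepatocyte markers 2 rose and 1 fell, with a median of -0.12, and Alb, the albumin gene, stood at 91200 ± 18800 CPM in TA and 105000 ± 31300 in CCNE-TA. Of 13 tested bile duct markers, Onecut1 left out, 7 rose and 0 fell, led by Spp1 (42.7 ± 2.03 to 255 ± 51.5 CPM), and their sum was 74.9 to 92.4 CPM in TA and 294 to 387 in CCNE-TA. Of 16 fetal and oncofetal genes 9 rose and 0 fell, among them Igf2 (3.21) and Dlk1 (5.48). Epcam and Sox9 were on both the bile duct and the fetal list and count among the raised genes of each. Of 12 proliferation markers 10 rose and 0 fell, with a median of 2.28. These counts fell when some single libraries were left out, as did the count over all liver genes, from 3942 to 1521 at the lowest. With 1 library left out the medians stayed at 1.03 to 1.4 for bile duct markers (Onecut1 included), 1.24 to 1.52 for fetal genes and 1.76 to 2.76 for proliferation markers. The bile duct markers raised were 3 without CCNE-TA 1 or TA 3 and 4 without TA 1, and the fetal genes raised were 3 without CCNE-TA 1, 4 without TA 3 and 5 without TA 2. The proliferation markers raised were 4 without TA 3, 5 without TA 2 and 6 without CCNE-TA 3. With TA 1 as the only control, the medians were 1.59 for bile duct markers (Onecut1 included), 1.49 for fetal genes and 1.69 for proliferation markers. Kap, a kidney tubule gene, had 22.8, 13.08 and 25.61 CPM in the 3 CCNE-TA livers, 13.77 in the liver of TA 1, and 0 in those of TA 2 and TA 3, which so stood apart from the other 4 livers. Of 12 kidney tubule markers tested 0 passed (sum 5.4 to 27.6 CPM in TA and 23.6 to 45.5 in CCNE-TA), and without TA 1 8 of 13 were raised. Of 8 lung epithelial markers 3 rose and of 13 immune markers 2. The part of these shifts in the values of the 9 factors was not tested.

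In kidney, 6 of the 9 genes passed the filter on low counts and 0 were called, beside 0.0131% of 15247 genes, which is 2 genes. At an unadjusted p under 0.05 the counts were 0 of 6 members and 2.13% of all genes, and DESeq2 also called 0 members. Hnf4a stood at 466.8, 534.6 and 559.4 CPM in TA 1, 2 and 3 and at 423.0, 485.4 and 392.0 CPM in CCNE-TA 1, 2 and 3. The groups overlapped, with a log2 change of -0.26 ± 0.21 (SE, edgeR adjusted p = 0.999). Foxa1 (0.43), Cebpa (-0.11), Nr1i2 (-0.08), Nr1i3 (-0.41) and Prox1 (-0.35) also overlapped between the genotypes. Between libraries of the same number, which shared their deviations in kidney, CCNE-TA was below TA in all 3 pairs for Hnf4a, Cebpa, Nr1i3 and Prox1, and not for Foxa1 and Nr1i2. How many of all kidney genes did so was not counted, so this does not single out the members. With the pairs as a block the adjusted p of the 6 genes was 0.945 to 0.97 (edgeR). The other 3 genes were too low to test. Foxa2 had 10, 9 and 8 counts in TA 1, 2 and 3 and 0, 0 and 4 in CCNE-TA, and Foxa3 had 8, 11 and 8 against 4, 8 and 8. As CPM, both had every CCNE-TA library below every TA library, at levels near the floor. The share over all tested genes, 2.68%, does not cover these 2 filtered genes, and the 6 tested members all overlapped.

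In lung, 8 of the 9 passed the filter and 0 were called, beside 0.00594% of 16823 genes, which is 1 gene. An unadjusted p under 0.05 was reached by 3 members and by 3.65% of all genes, and DESeq2 called 0 members. Hnf4a stood at 2.61, 4.71 and 23.47 CPM in TA 1, 2 and 3 and at 3.29, 0.73 and 0.74 CPM in CCNE-TA 1, 2 and 3. TA 3 lay far above the other libraries and CCNE-TA 1 above TA 1, and the log2 change was -2.68 ± 1.04 (SE, edgeR adjusted p = 1). With each library left out in turn it ran from -3.81 to -1.22. Nr1i3 stood at 0.6493, 1.405 and 3.875 CPM in TA and 0.6456, 0.2532 and 0.3154 CPM in CCNE-TA, just without overlap, a log2 change of -2.26 ± 0.75 (SE, edgeR adjusted p = 1). Nr1i2 stood at 3.41, 4.39 and 3.80 CPM in TA and 1.94, 2.003 and 3.06 CPM in CCNE-TA, without overlap, a log2 change of -0.73 ± 0.30 (SE, edgeR adjusted p = 1).

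Hepatocyte transcripts were also uneven among the lung libraries. Alb stood at 265.4, 418.1 and 1402 CPM in lung TA 1, 2 and 3 and at 203.5, 66.23 and 16.87 CPM in CCNE-TA 1, 2 and 3. All 25 hepatocyte markers tested in lung had a negative fold change, with a median of -2.96 and 0 called. Their sum was 2510 to 5180 CPM in TA and 1270 to 1660 in CCNE-TA. Most of the CCNE-TA sums was Hp, at 1350 to 1940 CPM in TA and 786 to 1540 in CCNE-TA. Its log2 change was only -0.48, so the sums understate the fall of the other markers. Alb was highest in TA 3, as were Hnf4a and Nr1i3, whereas Nr1i2 was highest in TA 2, and among the CCNE-TA libraries Nr1i2 was highest in CCNE-TA 3, where Alb was lowest. The part of hepatocyte transcripts in the values of these 3 genes was not tested. Members with a known place in lung epithelium had small values there. Foxa1 stood at 59.63, 72.92 and 63.47 CPM in TA and 43.40, 57.25 and 56.31 CPM in CCNE-TA, a log2 change of -0.32 ± 0.15 (SE, edgeR adjusted p = 1). Foxa1, Nr1i2 and Nr1i3 were thus 3 of 8 tested members with all CCNE-TA libraries below all TA libraries, beside 4.59% of genes tested in lung. Foxa2 (-0.08) and Cebpa (-0.18) overlapped between the genotypes, as did Foxa3 (-0.31) and Prox1 (-0.03). Onecut1, not tested, had 1, 0 and 13 counts in lung TA and 21, 0 and 0 in CCNE-TA.

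**Figure D4:**
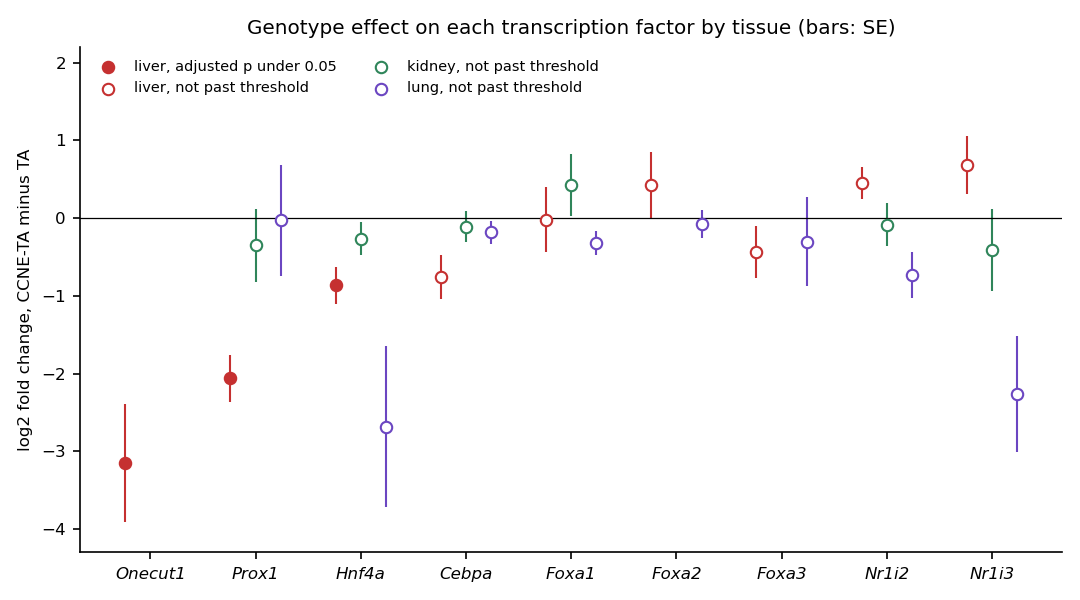
Log2 fold change of each gene, CCNE-TA minus TA, with SE bars, in liver (red), kidney (green) and lung (purple), filled where the edgeR adjusted p is under 0.05 and left out where the gene was too low to test. The 3 filled points are Onecut1 (-3.15), Prox1 (-2.06) and Hnf4a (-0.87) in liver.

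Whether the genotype effect differed between tissues was tested as an interaction in the fit of all 18 libraries. Between liver and kidney 0 of 9 members passed, beside 9.52% of 17155 genes, and 2 of 9 members had an unadjusted p under 0.05, beside 28.8% of all genes. Foxa2 had the lowest adjusted p, with a difference of 3.19 ± 0.99 on the log2 scale (SE, edgeR adjusted p = 0.0526), which DESeq2 put at 0.00804. It rests on the few kidney counts given above, and without kidney CCNE-TA 3 it was 7.52 (edgeR adjusted p = 0.0314), without liver TA 2 3.89 (0.0191). Differences for the 3 genes lowered in liver were -2.24 ± 4.59 for Onecut1, -1.70 ± 0.77 for Prox1 and -0.61 ± 0.88 for Hnf4a. The edgeR adjusted p was 0.804, 0.159 and 0.699 in this order. A difference from kidney was thus not shown for Prox1 and Hnf4a. For Onecut1 the contrast cannot decide this, since its kidney counts were below the floor. They were 2, 0 and 0 in TA 1, 2 and 3 and 0, 0 and 1 in CCNE-TA 1, 2 and 3. This fit takes 1 spread per gene over all groups, lung among them, where Hnf4a ran from 0.73 to 23.47 CPM. Fitted within 1 tissue, the SE of Hnf4a was 0.24 in liver and 0.21 in kidney.

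Between liver and lung 2 of 9 members passed, both with a higher genotype effect in liver, beside 6.23% of genes in that direction and 12.7% in either. The difference was 1.15 ± 0.33 for Nr1i2 (SE, edgeR adjusted p = 0.0347) and 2.83 ± 0.75 for Nr1i3 (0.026). Neither gene passed within liver or within lung. The Nr1i2 call was lost without liver CCNE-TA 1, CCNE-TA 3, TA 1 or TA 3 and without lung CCNE-TA 1, CCNE-TA 2, TA 1 or TA 2 (edgeR adjusted p = 0.0538 to 0.0964). The Nr1i3 call was lost without liver CCNE-TA 3, TA 2 or TA 3 and without lung CCNE-TA 2 (0.0566 to 0.0621). For Prox1 the difference was -2.09 ± 0.76 (edgeR adjusted p = 0.0775), for Onecut1 -2.59 ± 1.65 (0.299) and for Hnf4a 1.78 ± 0.89 (0.185).

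Across the 18 libraries, genes of like pattern were ranked by the Pearson correlation of log2 CPM. The points share tissue and library, so the values describe mainly the tissue order and carry no test. Nearest to Hnf4a were Hgd (0.997), Habp2 (0.996) and Aldh8a1 (0.995). Nearest to Prox1 were Lman1 (0.985), Sec16a (0.984) and Ubxn4 (0.983), and nearest to Onecut1 were Fads6 (0.979), Epg5 (0.976) and Arhgap42 (0.976). For Nr1i3 they were Abcg5 (0.994), Gckr (0.993) and Hsd17b6 (0.992), for Nr1i2 Slco1a4 (0.991), Hgfac (0.988) and Tspan31 (0.987), and for Foxa3 Gpld1, Colec10 and Nags (0.993 each). For Cebpa they were Ikbkg (0.993), Cyp4v3 (0.988) and Dpy19l1 (0.987), for Foxa2 Ablim3 (0.985), Slc39a4 (0.985) and Stom (0.978), and for Foxa1 Cyp2f2 (0.966), Mycl (0.961) and Pxdc1 (0.956). Among the members, Foxa3 and Nr1i3 were closest (0.97), Foxa1 and Foxa2 stood at 0.95, and Hnf4a and Foxa1 at -0.42.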

How the data were processed

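RNA-seq of 18 libraries (3 tissues, 2 genotypes, 3 libraries per group) was used. The authors deposited unnormalized read counts, 1 whole number per gene symbol and library. Per the submitters' processing notes, TopHat2 2.0.14, Bowtie2 2.2.6 and featureCounts 1.4.6 of Subread were used with build mm10; the annotation, strand setting and treatment of reads with several alignments are not given in the sources used here. Even numbers made up 64.2% to 71.2% of counts from 1 to 20, so 1 count is not 1 independent molecule.

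Each tissue was fitted alone with edgeR 4.0.16 in R 4.3.3 (filterByExpr, TMM scaling, robust quasi-likelihood F test, CCNE-TA against TA), with Benjamini-Hochberg adjustment over all genes tested and a threshold of 0.05. Tissue contrasts and interactions came from 1 fit of all 18 libraries. CPM and fold changes are from these fits, the SE is the fold change divided by the square root of F, and RPKM uses the longest GENCODE M21 transcript. Symbols matched M21 for 22750 of 24062 genes directly and 935 through a RefSeq synonym. The scripts were tested on simulated data. Alternatives were DESeq2 1.42.0, limma-voom (limma 3.58.1), upper quartile scaling, no filter, 1 fit of all libraries, a replicate block, Xist as a covariate, a length and GC offset (splines with 4 degrees of freedom) and leaving out each library. TA 1 as the only liver control, and lung without CCNE-TA 1 and TA 3, were added after seeing the data.

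The 9 genes and the lists were chosen with earlier results of these data known. Named genes are the 9, the first 5 (8 for liver factors, liver function genes and PXR and CAR targets) of a list by p, and the 3 genes most alike. Alb, Igf2, Dlk1, Cela2a, Onecut2, Zbtb20, Mlxipl, Nr0b2, Kap, Tomm40l, Hnf4aos, Sox9 and Hp were named besides. Some genes are not reported here and were left out of the lists. Likeness used log2(CPM + 0.5) over genes with a mean of at least 1. Same-numbered libraries of both genotypes shared their deviations in kidney (correlations across genes of 0.31, 0.49 and 0.34), which comes from the data and not the labels, but not in liver (0.20, 0.00 and 0.08) or lung (-0.48, -0.10 and -0.59).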

Additional observations from a re-analysis of the deposited data

Results flagged for a closer look

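The genotype effect on Nr1i2 and on Nr1i3 differed between liver and lung by the interaction test. For Nr1i2 the difference was 1.153 on the log2 scale (edgeR adjusted p = 0.0347) in the fit of all 18 libraries, and the fits of each tissue alone gave 0.45 in liver and -0.73 in lung. Over the alternatives for this contrast its adjusted p ran from 0.00803 with DESeq2 to 0.0964 without lung TA 2. For Nr1i3 the difference was 2.832 (edgeR adjusted p = 0.026), and the tissues alone gave 0.68 in liver and -2.26 in lung. Its adjusted p ran from 0.00194 with DESeq2 to 0.0732 with limma-voom, and without lung TA 3 the difference was 1.94 (0.0467). Lung levels of Nr1i3 were at most 3.88 CPM, and Alb, like Nr1i3, was highest in lung TA 3. In liver Nr1i3 shares most of its exon bases with Tomm40l, which moved with it. Xist was high in CCNE-TA 1 and 2 and in TA 1 in liver. In lung it was high in libraries 1 and 2 of both genotypes. It stood there at 430.9, 494.4 and 1.406 CPM in CCNE-TA 1, 2 and 3 and at 688, 720.2 and 0.37 CPM in TA. Xist was not a covariate in any fit of this contrast. The part of these facts in the difference was not tested.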

How the results depend on the processing

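Of the results in liver, Prox1 kept its direction and call in all 15 alternatives, Onecut1 its direction in 15 and its call in 10, and Hnf4a its direction in 15 and its call in 5. The number of members called in liver was 3, and 1 to 3 when a library was left out; it was 1 without CCNE-TA 1 and 1 with TA 1 as the only control. The count of all genes called in liver was 3942 and ran from 1521 to 4582 without 1 library, the lowest without CCNE-TA 1, and was 91 with TA 1 as the only control. Without TA 1, TA 2 or TA 3 it was 2513, 1832 and 1670. Upper quartile scaling shifted the median of all liver genes to 0.21 and the split to 2610 raised and 1367 lowered, from 1897 and 2045. In kidney the count over all genes was 2, with 29 by DESeq2 and 1 to 2 without 1 library. In lung it was 1, with 183 by DESeq2, 94 in the fit of all 18 libraries, 0 by limma-voom, 0 with the replicate block and 0 to 1 without 1 library. Members called between liver and kidney were 0, with 1 under upper quartile scaling, DESeq2 and the replicate block and 0 to 1 without 1 library; between liver and lung they were 2, with 1 by limma-voom, 1 with the replicate block and 0 to 4 without 1 library. Values changed sign for liver Foxa1 (0.16 with upper quartile scaling, 0.15 with limma-voom, 0.15 with the replicate block, 0.33 with Xist as a covariate, 0.49 with TA 1 as the only control, -0.32 to 0.65 without 1 library), and with TA 1 as the only control for liver Foxa3 (0.00) and Nr1i3 (-0.05). In kidney, without 1 library, Foxa1 ran from -0.02 to 0.74, Cebpa from -0.25 to 0.02 and Nr1i2 from -0.32 to 0.09. In lung, Foxa2 was 0.07 without CCNE-TA 1 and TA 3 and ran from -0.24 to 0.07 without 1 library, Foxa3 from -1.01 to 0.07, and Prox1 from -1.03 to 0.48, with 0.02 in the fit of all 18 libraries and 0.07 with Xist as a covariate. With the replicate block the liver values were -2.98 for Onecut1 (adjusted p = 0.0084), -2.01 for Prox1 (0.00826) and -0.86 for Hnf4a (0.0702), and 0 members were called in kidney. The control liver and kidney levels of Hnf4a no longer passed with the block (2.05, 0.112), nor did the Nr1i3 difference between liver and lung (2.74, 0.0708). Among the 38 other liver factors, 7 were raised and 9 lowered with upper quartile scaling, 6 and 11 by DESeq2, and 0 in either direction with TA 1 as the only control, as for the 35 liver function genes with Nr1i2 among them. The cause of these changes was not tested. A fit with TA 1 alone takes its spread from the other group. Depth limits Foxa2, Foxa3 and Onecut1 in kidney and Onecut1 in lung, which stood near or below 3 counts per library or were filtered.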
